A study of Homo sapiens with 8 samples.

Results

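The collagen chains are the genes that encode the polypeptides of collagen, the main protein of connective tissue. They were taken as every row of the deposited table that was annotated as protein coding and carried a symbol of the form COL, a type number, A and a chain number. This gave 38 genes of the 24598 rows in the table: 11 fibrillar chains, 6 basement membrane (type IV) chains, 7 chains of the fibril-associated collagens with interrupted triple helices (FACIT), and 14 chains of other types. All 38 passed the filter on low values, 9 of them only through the libraries that received celastrol.

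Collagen chains wind around each other in threes to form a triple helix. In the fibrillar types the helix assembles into the banded fibrils that give skin its strength, in type IV it forms the mesh of basement membranes, and FACIT chains sit on the surface of fibrils. Transforming growth factor beta 1 (TGFB1) is a well known inducer of collagen production in skin fibroblasts, and its excess is linked to fibrosis. Celastrol is a triterpenoid of the plant Tripterygium wilfordii.

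The cells were CCD-1077Sk, a fibroblast line from normal human skin grown in culture, and their RNA was sequenced after 6 h of treatment. The design asks how celastrol alters the gene expression that TGFB1 brings about. There were 4 groups of 2 libraries each: TGFB1 with celastrol at 500 nM, TGFB1 with the solvent DMSO, celastrol at 500 nM with the TGFB1 carrier (bovine serum albumin and citric acid), and control cells with the carrier and DMSO. The sources used here give no TGFB1 dose. All groups are of 1 cell line. Nothing in the labels ties the 2 libraries of a group to separate dishes, and p-values therefore reflect library-to-library spread that may be technical.

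Values are normalized reads: estimated reads per gene divided by 1 size factor per library. Libraries held between 20716731 and 42518398 estimated reads. All 10 fibroblast identity genes were in the table, with VIM the largest part of their sum. They had summed levels of 168500 to 197700 normalized reads with TGFB1 and celastrol, 177100 to 204200 with TGFB1, 170700 to 186200 with celastrol and 164100 to 178000 in control libraries. Of this list, PDGFRA and TCF21 were called higher and FAP, PDGFRB and PRRX1 lower when celastrol was added to TGFB1. Changes are log2 fold changes of normalized reads plus 1 from a limma fit to all 8 libraries, with p-values adjusted over the 22866 rows tested and a call at an adjusted p under 0.05. The fold change of a low gene is drawn toward 0 by the added 1.

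Collagen transcripts made up 1.91% and 2.02% of all normalized reads with TGFB1 and celastrol, 3.00% and 3.33% with TGFB1, 1.98% and 2.20% with celastrol alone, and 2.57% and 2.54% in control libraries. The TGFB1 libraries had the highest shares and no 2 groups with and without celastrol overlapped. Type I chains were the most abundant per length. COL1A1 had 37750 and COL1A2 28760 normalized reads per kb of transcript with TGFB1, against 23020 and 25880 in control libraries. They were followed in control libraries by COL6A3 (10350), COL12A1 (7185), COL6A2 (6069), COL6A1 (5182) and COL3A1 (5181), all in normalized reads per kb. Total RNA of a culture was measured, so fewer cells making a transcript and less transcript per cell cannot be told apart.

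**Figure D1:**
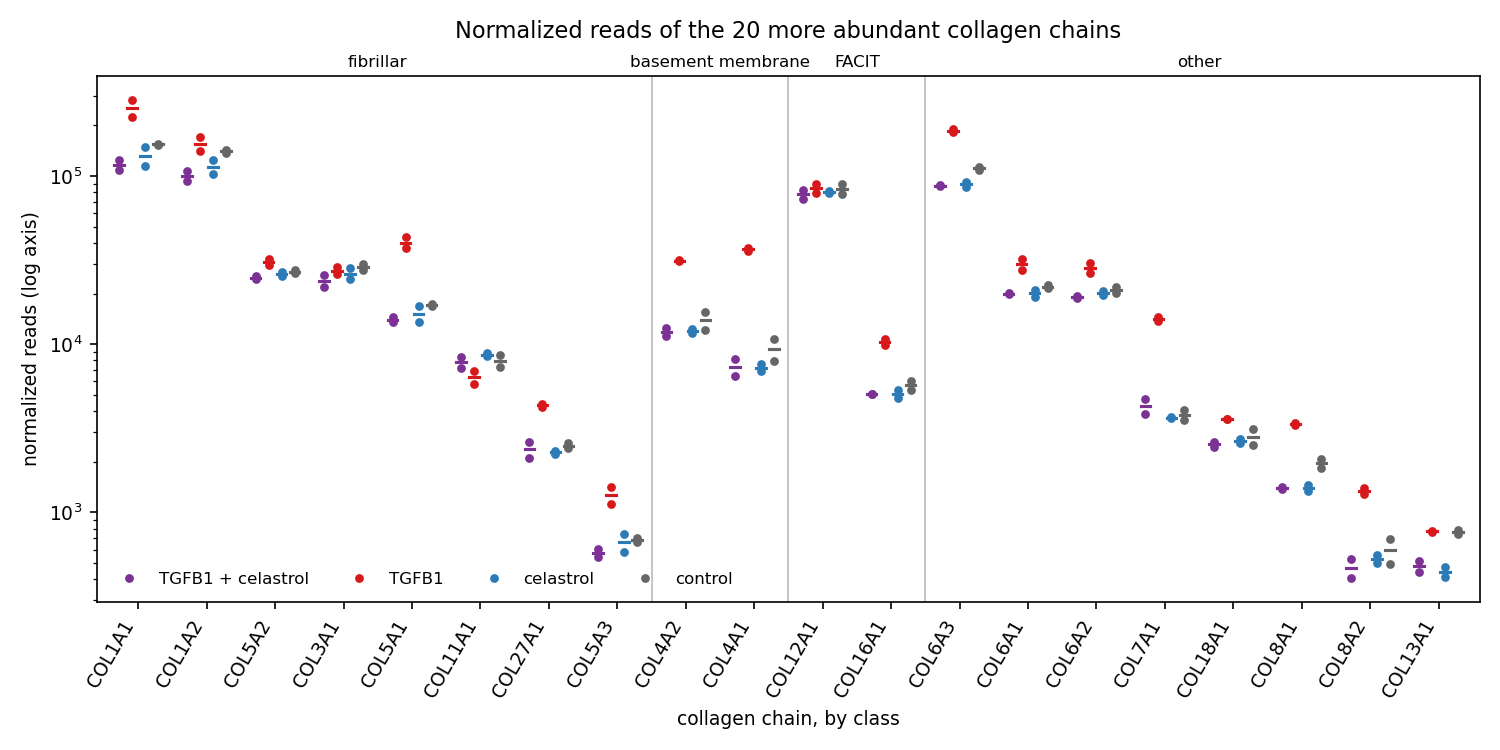
Normalized reads (log axis) of the 20 collagen chains with a mean of at least 500 over the 8 libraries, ordered by class and level. Points are libraries and short bars are means of 2 libraries. The TGFB1 points of COL4A1, COL4A2, COL5A1 and COL7A1 stand above all other groups, whereas those of COL3A1 and COL12A1 lie among them.

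Fibrillar chains differed widely in their response to TGFB1. Of the 11, 5 were higher with TGFB1 than in control libraries and 0 lower, where 12.8% of all rows tested were called higher and 10.6% lower. The 11 had a median change of 0.50, against 0.00 over all rows tested. With celastrol added to TGFB1, 6 were lower and 2 higher, where 25.9% of all rows were called lower and 37.5% higher. COL2A1, counted as higher in both comparisons, passed the filter only through celastrol libraries. These comparisons share the TGFB1 libraries, so their values are given side by side for each chain.

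COL1A1 (chromosome 17, 50184101 to 50201632, hg38, minus strand) encodes the main chain of type I collagen, of which each helix holds more copies than of COL1A2. It had 108573 and 125115 normalized reads with TGFB1 and celastrol, 223348 and 284508 with TGFB1, 114158 and 147928 with celastrol alone, and 153977 and 155723 in control libraries. Both TGFB1 libraries lay above all others, and both TGFB1 and celastrol libraries lay below the control libraries. COL1A1 rose by 0.70 with TGFB1 (SE 0.15, adjusted p = 0.0116) and fell by 1.11 when celastrol was added to TGFB1 (SE 0.15, adjusted p = 0.00026). The rise was lost when control replicate 1 or 2 was left out (adjusted p = 0.0548 and 0.0518), in a fit lacking the variance trend (0.0572) and in a fit to just the TGFB1 and control libraries (0.234).

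COL1A2 (chromosome 7, 94394895 to 94431227, plus strand) encodes the partner chain. It had 93460 and 107517 normalized reads with TGFB1 and celastrol, 140763 and 170475 with TGFB1, 102557 and 124097 with celastrol alone, and 136373 and 143723 in control libraries. The TGFB1 and control libraries overlapped, and the change of 0.15 (SE 0.13, adjusted p = 0.469) did not pass. Celastrol added to TGFB1 changed COL1A2 by -0.63 (SE 0.13, adjusted p = 0.00259).

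COL3A1 (chromosome 2, 188974373 to 189012746, plus strand) encodes type III collagen, which is found with type I in skin fibrils. It had 21993 and 25649 normalized reads with TGFB1 and celastrol, 26004 and 28758 with TGFB1, 24324 and 28198 with celastrol alone, and 27645 and 29789 in control libraries. TGFB1 and control libraries overlapped, with a change of -0.07 (95% interval -0.30 to 0.16). The change with celastrol added to TGFB1 was -0.20 (95% interval -0.43 to 0.03, adjusted p = 0.111). With each library centred on its median COL3A1 passed as lower (adjusted p = 0.00268), and also with the replicate number as a block (0.00451).

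Type V collagen nucleates type I fibrils and its chains responded unequally. COL5A1 (chromosome 9, 134641803 to 134844843, plus strand) had 13474 and 14528 normalized reads with TGFB1 and celastrol, 37189 and 43198 with TGFB1, 13499 and 16841 with celastrol alone, and 17336 and 16765 in control libraries. It rose by 1.23 with TGFB1 (SE 0.11, adjusted p = 0.000112) and fell by 1.52 with celastrol added (SE 0.11, adjusted p = 7.9e-06). COL5A2 (chromosome 2, 189031898 to 189225312, minus strand), which lies next to COL3A1, had 24272 and 25347 normalized reads with TGFB1 and celastrol, 29607 and 31997 with TGFB1, 25405 and 27048 with celastrol alone, and 27467 and 26598 in control libraries. Its TGFB1 libraries lay above the control libraries by a small margin, a change of 0.19 (SE 0.07, adjusted p = 0.0742), which passed without TGFB1 replicate 1 (adjusted p = 0.0418) and with median centring (0.00819). With celastrol added to TGFB1 it fell by 0.31 (SE 0.07, adjusted p = 0.00304; 0.0591 with each library scaled to a common total). COL5A3, a less common chain, had 545.4 and 602.0 normalized reads with TGFB1 and celastrol, 1123 and 1409.7 with TGFB1, 583.6 and 747.2 with celastrol alone, and 699.1 and 670.0 in control libraries. Both TGFB1 libraries lay above the other 6. COL5A3 rose by 0.88 with TGFB1 (SE 0.14, adjusted p = 0.00261) and fell by 1.13 with celastrol added (SE 0.14, adjusted p = 0.000139); its rise did not pass with only the 4 compared libraries (adjusted p = 0.0704).

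COL27A1, a fibrillar chain known from cartilage, had 2618 and 2116 normalized reads with TGFB1 and celastrol, 4257 and 4388 with TGFB1, 2215 and 2330 with celastrol alone, and 2578 and 2403 in control libraries. Both TGFB1 libraries were highest, a rise of 0.80 over control (SE 0.10, adjusted p = 0.000559) and a fall of 0.88 with celastrol added (SE 0.10, adjusted p = 6.8e-05). COL11A1, a chain of the cartilage collagen type XI, stood apart. It had 8446 and 7193 normalized reads with TGFB1 and celastrol, 6890 and 5826 with TGFB1, 8836 and 8451 with celastrol alone, and 8637 and 7302 in control libraries, with a change of -0.33 for TGFB1 (SE 0.11, adjusted p = 0.0703). That change passed as lower with a common total (adjusted p = 0.00697), with a minimum of 50 (0.0497) and without TGFB1 replicate 1 (0.0376). The call of COL11A1 as higher with celastrol added (0.30, SE 0.11, adjusted p = 0.0441) was lost without TGFB1 and celastrol replicate 1 (0.29), TGFB1 replicate 2 (0.242) or either celastrol library (0.0789 each), and with median centring its change was near 0 (adjusted p = 0.936).

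The type IV chains of basement membranes included the largest rise. Of 6 chains, 3 were higher with TGFB1 and 0 lower, where 12.8% and 10.6% of all rows were called. With celastrol added to TGFB1 3 were lower and 2 higher, where 25.9% and 37.5% of all rows were called, and COL4A6, which was higher, passed the filter only through celastrol libraries. COL4A1 (chromosome 13, 110148963 to 110307157, minus strand) and COL4A2 (chromosome 13, 110305812 to 110513209, plus strand) encode the chains of the most widespread type IV network and lie head to head. In the deposited coordinates given here COL4A2 starts inside COL4A1, whereas their RefSeq starts leave 126 bases between them. Whether reads were exchanged in the shared part was not tested. The 126 bases between the RefSeq starts are shown because both genes, which changed together, read away from this stretch. The start regions of COL7A1 and COL5A1, which also rose, and of COL12A1, whose levels overlapped among groups, are shown beside it. Sequences are from RefSeq (GRCh38.p14), 5′ to 3′ on the strand named, the last 3 covering the 250 bases before the start. Capitals mark matches on either strand to any of 5 motifs. They were the SMAD site core, spelled CAGAC, and the binding box of nuclear factor Y, spelled CCAAT. The others were the GC box, spelled GGGCGG, the site of the factor AP-1, spelled TGANTCA, and the heat shock element. No match of 1 motif overlapped that of another in these stretches.

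COL4A1 and COL4A2, chr13:110307158-110307283, plus strand: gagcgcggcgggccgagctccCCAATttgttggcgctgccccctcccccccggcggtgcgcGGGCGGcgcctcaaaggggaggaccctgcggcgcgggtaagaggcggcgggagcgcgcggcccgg
COL7A1, chr3:48595330-48595579, minus strand: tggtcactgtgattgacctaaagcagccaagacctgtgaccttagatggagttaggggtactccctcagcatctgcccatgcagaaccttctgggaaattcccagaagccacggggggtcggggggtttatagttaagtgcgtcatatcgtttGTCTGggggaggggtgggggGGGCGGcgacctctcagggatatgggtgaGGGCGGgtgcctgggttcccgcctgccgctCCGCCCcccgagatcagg
COL5A1, chr9:134641553-134641802, plus strand: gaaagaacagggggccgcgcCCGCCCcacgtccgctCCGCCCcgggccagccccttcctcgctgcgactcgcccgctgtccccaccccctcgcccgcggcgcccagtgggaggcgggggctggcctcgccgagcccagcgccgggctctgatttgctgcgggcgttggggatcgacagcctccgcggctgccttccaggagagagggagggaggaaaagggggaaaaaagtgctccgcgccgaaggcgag
COL12A1, chr6:75206054-75206303, minus strand: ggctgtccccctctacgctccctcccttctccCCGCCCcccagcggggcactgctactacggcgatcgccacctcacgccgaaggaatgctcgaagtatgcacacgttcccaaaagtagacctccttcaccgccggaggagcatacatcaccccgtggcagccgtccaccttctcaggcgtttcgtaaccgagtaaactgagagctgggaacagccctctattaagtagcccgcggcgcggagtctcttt

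The stretch between COL4A1 and COL4A2 held 1 CCAAT and 1 GC box. That of COL7A1 held 1 CAGAC, read on the opposite strand, and 3 GC boxes, while those of COL5A1 and COL12A1 held 2 and 1 GC boxes and no other match. Over the 39 RefSeq windows of the 28 chains matched by symbol, the 250 bases before the start held CAGAC in 41.0%, CCAAT in 28.2%, GGGCGG in 56.4%, TGANTCA in 2.56% and the heat shock element in 0 of 39. Of all 35116 windows of this length, 38.0%, 32.0%, 42.6%, 6.57% and 0.441% held them in the same order. These matches are descriptions of the letters in the window. The other 10 chains, among them COL1A1, COL1A2, COL3A1, COL5A2 and COL6A1, had no window, and some of the 28 had more than 1.

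COL4A1 had 8217 and 6438 normalized reads with TGFB1 and celastrol, 37185 and 35949.6 with TGFB1, 7635 and 6896 with celastrol alone, and 10737 and 7902 in control libraries. The TGFB1 libraries stood far above the rest, and both libraries with celastrol alone lay below both control libraries. COL4A1 rose by 1.99 with TGFB1 (SE 0.15, adjusted p = 4.69e-05) and fell by 2.33 with celastrol added (SE 0.15, adjusted p = 4.42e-06). COL4A2 had 12536 and 11188 normalized reads with TGFB1 and celastrol, 31080.5 and 31561 with TGFB1, 12394 and 11681 with celastrol alone, and 15572 and 12194 in control libraries. It rose by 1.18 (SE 0.11, adjusted p = 0.000129; 0.0545 with only the 4 compared libraries) and fell by 1.40 with celastrol added (SE 0.11, adjusted p = 1.12e-05).

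The remaining type IV chains, known from kidney, lung and other specialised basement membranes, were low. They also form head-to-head pairs, COL4A4 with COL4A3 and COL4A6 with COL4A5. COL4A4 had 82.7 and 106.8 normalized reads with TGFB1 and celastrol, 132.8 and 173.3 with TGFB1, 71.9 and 109.0 with celastrol alone, and 78.8 and 82.2 in control libraries. Its rise of 0.91 (adjusted p = 0.0316) was lost on leaving out TGFB1 replicate 2, control replicate 1 or 2, or either TGFB1 and celastrol library (adjusted p = 0.131, 0.118, 0.099, 0.0549 and 0.0561). Its fall by 0.69 with celastrol added (adjusted p = 0.0391) was likewise lost on leaving out 1 of 5 libraries (0.0518 to 0.218). COL4A5 moved the other way. It had 240.5 and 285.0 normalized reads with TGFB1 and celastrol, against 166.7 and 205.2 with TGFB1, a rise of 0.50 (adjusted p = 0.0256) that was lost without TGFB1 and celastrol replicate 2 (0.164) or TGFB1 replicate 1 (0.133) and with median centring (0.281). COL4A3 had 8.4 to 29.5 normalized reads in every library and was called in no comparison with all libraries. Against control, the TGFB1 and celastrol libraries passed as higher without TGFB1 and celastrol replicate 2 (adjusted p = 0.0456), TGFB1 replicate 1 (0.0467) or TGFB1 replicate 2 (0.0486).

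FACIT chains were led in level by COL12A1, a long chain that bridges fibrils. It had 82260 and 73151 normalized reads with TGFB1 and celastrol, 89212 and 79414 with TGFB1, 81958 and 79303 with celastrol alone, and 90254 and 78211 in control libraries. The groups overlapped, with a TGFB1 change of 0.00 (95% interval -0.23 to 0.23) and a change of -0.12 with celastrol added (95% interval -0.35 to 0.11). It passed as lower with median centring (adjusted p = 0.00576). COL16A1, which binds fibrils at the cell surface, had 5076 and 5057 normalized reads with TGFB1 and celastrol, 9892 and 10750.4 with TGFB1, 4776 and 5343 with celastrol alone, and 6077 and 5349 in control libraries. It was the FACIT chain called with TGFB1, with a rise of 0.85 (SE 0.08, adjusted p = 0.000158), and it fell by 1.02 with celastrol added (SE 0.08, adjusted p = 1.26e-05). COL14A1 spanned 94.6 to 205.8 normalized reads over all libraries, was called in no comparison as fitted, and overlapped among the 4 groups.

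Among the other types, 7 of 14 chains were higher with TGFB1 and 0 lower, where 12.8% and 10.6% of all rows were called. With celastrol added 8 were lower and 5 higher (35.7%), where 25.9% and 37.5% of all rows were called. Of the 5 higher, COL10A1, COL25A1, COL26A1 and COL28A1 passed the filter only through celastrol libraries. COL7A1 (chromosome 3, 48564073 to 48595267, minus strand) encodes the anchoring fibrils that tie the epidermal basement membrane to the dermis. It had 4690 and 3863 normalized reads with TGFB1 and celastrol, 13782 and 14540 with TGFB1, 3625 and 3674 with celastrol alone, and 4065 and 3553 in control libraries. The TGFB1 libraries stood apart from the other 6, with a rise of 1.90 (SE 0.10, adjusted p = 6.32e-06) and a fall of 1.73 with celastrol added (SE 0.10, adjusted p = 2.22e-06).

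Type VI collagen forms beaded microfibrils near cells from the products of COL6A1, COL6A2 and COL6A3. COL6A3 (chromosome 2, 237324003 to 237414207, minus strand) had 86695 and 88074 normalized reads with TGFB1 and celastrol, 181814 and 190723 with TGFB1, 86579 and 92048 with celastrol alone, and 113437 and 109140 in control libraries. It rose by 0.74 with TGFB1 (SE 0.07, adjusted p = 0.000201; 0.126 with only the 4 compared libraries) and fell by 1.09 with celastrol added (SE 0.07, adjusted p = 5.69e-06). The libraries with celastrol also lay below the control libraries.

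COL6A1 and COL6A2, neighbours on chromosome 21, moved less. COL6A1 had 19801 and 20082 normalized reads with TGFB1 and celastrol, 27695 and 32239 with TGFB1, 19148 and 21018 with celastrol alone, and 22448 and 21474 in control libraries. Its rise was 0.45 (SE 0.08, adjusted p = 0.00554) and its change with celastrol added -0.58 (SE 0.08, adjusted p = 0.000311). COL6A2 had 18856 and 19255 normalized reads with TGFB1 and celastrol, 26681 and 30298 with TGFB1, 19575 and 20698 with celastrol alone, and 21771 and 20239 in control libraries. The corresponding changes were 0.44 (SE 0.07, adjusted p = 0.00387) and -0.58 (SE 0.07, adjusted p = 0.000195). With a common total the rises of COL6A1 and COL6A2 did not pass (adjusted p = 0.0631 and 0.0516), nor with only the 4 compared libraries (0.119 and 0.11).

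Type VIII collagen is a short-chain collagen of the vessel wall and cornea. COL8A1 had 1368 and 1416 normalized reads with TGFB1 and celastrol, 3306 and 3390 with TGFB1, 1340.3 and 1449.7 with celastrol alone, and 2084 and 1826 in control libraries, so that the 3 levels with TGFB1, control and celastrol did not overlap. It rose by 0.78 with TGFB1 (SE 0.08, adjusted p = 0.000183) and fell by 1.27 with celastrol added (SE 0.08, adjusted p = 3.04e-06). COL8A2 had 531.4 and 406.1 normalized reads with TGFB1 and celastrol, 1388 and 1288 with TGFB1, 555.8 and 500.2 with celastrol alone, and 690.4 and 496.1 in control libraries. It rose by 1.19 (SE 0.17, adjusted p = 0.00148; 0.077 with only the 4 compared libraries) and fell by 1.52 (SE 0.17, adjusted p = 7.94e-05). COL18A1, whose product carries endostatin, rose by 0.36 (adjusted p = 0.0255) and fell by 0.51 (adjusted p = 0.00156). The COL18A1 rise was lost without any 1 of 7 libraries (adjusted p from 0.0532 to 0.132) and with a common total (0.298), and its exons overlap those of SLC19A1 on the opposite strand, so reads could have been exchanged.

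COL13A1, a transmembrane collagen at cell contacts, did not follow the TGFB1 libraries. It had 438.9 and 515.0 normalized reads with TGFB1 and celastrol, 778.2 and 768.2 with TGFB1, 413.5 and 471.1 with celastrol alone, and 745.4 and 784.0 in control libraries. The 4 libraries with celastrol lay below the 4 without it, whether or not TGFB1 was present. It fell by 0.70 with TGFB1 (SE 0.10, adjusted p = 0.000376) and by 0.79 without TGFB1 (SE 0.10, adjusted p = 0.000244), with a TGFB1 change of 0.02 (95% interval -0.22 to 0.25).

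**Figure D2:**
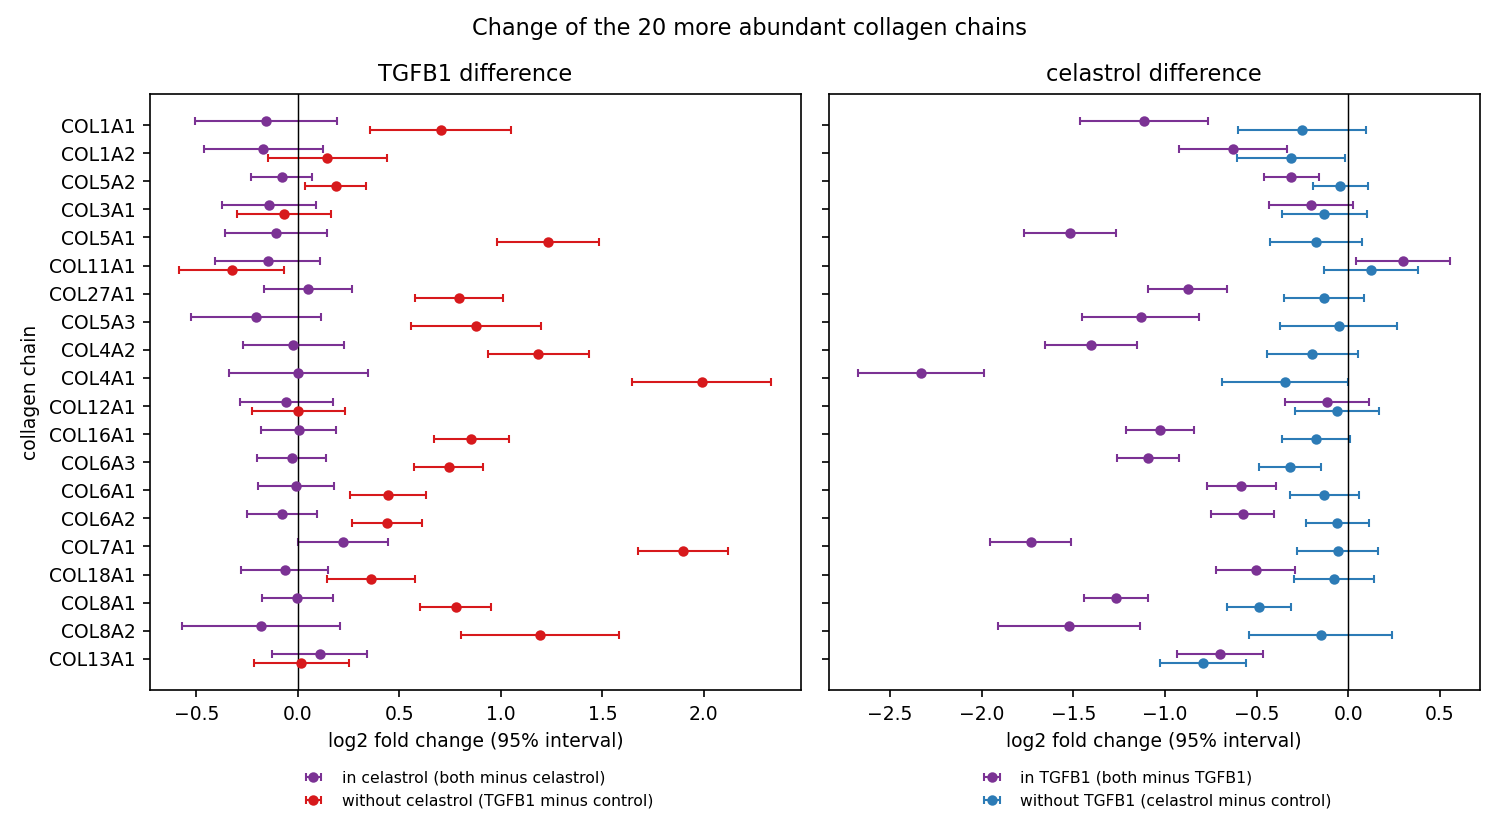
Log2 fold changes with 95% intervals from the limma fit for the 20 more abundant collagen chains: left, the TGFB1 difference in the presence and in the absence of celastrol; right, the celastrol difference in the presence and in the absence of TGFB1. In the presence of celastrol the 20 TGFB1 differences lie near 0 and all their intervals include 0.

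Over all 38 chains, 16 were higher with TGFB1 than in control libraries and 0 lower (limma, 21 at an unadjusted p under 0.05), with a median of 0.33 against 0.00 over all rows tested. The 16 include COL2A1, which held 2 estimated reads in each TGFB1 library and passed the filter only through celastrol libraries. With a common total, which moves the median of all rows by -0.21, 12 were higher and 3 lower; with median centring, which moves it by 0.12, 17 and 0. In a fit to just the TGFB1 and control libraries 6 were higher. The calls of COL4A1, COL5A1, COL7A1, COL8A1, COL16A1 and COL27A1 held under all 16 alternatives run.

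The chains were also divided at a mean of 500 normalized reads over the 8 libraries, a division chosen after the values were seen. Of the 20 above it, 14 were higher with TGFB1, against 26.8% of all rows tested at that level. With celastrol added to TGFB1, 17 of the 20 were lower and 1 higher (COL11A1), against 46.0% lower and 22.6% higher of all rows at that level. COL3A1 and COL12A1 were the chains of the 20 not called.

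Whether the response to celastrol depended on TGFB1 was tested as an interaction. Of 38 chains, 13 had a negative interaction and 0 a positive one, where 6.89% and 4.36% of all rows tested were called in these directions. All 13 were among the 20 chains above the division, and 15.7% and 5.66% of all rows at that level were called in these directions. The 13 were COL1A1 and COL5A1, COL5A3 and COL27A1 of the fibrillar class, COL4A1, COL4A2, COL16A1, COL6A1, COL6A2, COL6A3, COL7A1, COL8A1 and COL8A2. The interaction was -1.99 for COL4A1 (SE 0.21, adjusted p = 0.000778), -1.68 for COL7A1 (SE 0.14, adjusted p = 0.000223) and -1.34 for COL5A1 (SE 0.16, adjusted p = 0.00114). For COL12A1 it was -0.06 (95% interval -0.38 to 0.27) and for COL13A1 0.09 (95% interval -0.24 to 0.42). Without TGFB1 and celastrol replicate 2, 8 chains had a negative interaction, and 7 without a variance trend. The COL1A1 interaction (-0.86, adjusted p = 0.0371) was lost on leaving out any of 6 libraries (adjusted p from 0.066 to 0.167).

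In the presence of celastrol, TGFB1 changed no chain past the threshold. In TGFB1 and celastrol libraries against celastrol libraries, 0 of 38 chains were higher or lower (limma; 0 also at an unadjusted p under 0.05), where 0.00437% of all rows tested were called higher and 0.00437% lower, which is 1 row each way. Among the 20 more abundant chains the change furthest from 0 was that of COL7A1, 0.22 (95% interval -0.001 to 0.444). For COL4A1 the change was 0.00 (95% interval -0.34 to 0.35), for COL1A1 -0.16 (-0.51 to 0.19) and for COL5A1 -0.11 (-0.36 to 0.14).

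Celastrol without TGFB1 lowered fewer abundant chains. Against control, 9 of 38 chains were higher and 3 lower, where 33.8% of all rows tested were called higher and 21.3% lower. The 3 were COL6A3 (-0.32, SE 0.07, adjusted p = 0.00628), COL8A1 (-0.48, SE 0.08, adjusted p = 0.00075) and COL13A1. The COL6A3 call was lost without celastrol replicate 1 (adjusted p = 0.0755), and without control replicate 2 the chains COL4A1, COL4A2, COL16A1 and COL18A1 also passed as lower (adjusted p = 0.0124, 0.0115, 0.0469 and 0.0487). The number lower depended on the scaling: 8 were higher and 8 lower with a common total, and 8 and 15 with median centring, which moves the median of all rows by -0.17. COL1A1 (-0.25, 95% interval -0.60 to 0.10) and COL1A2 (-0.31, 95% interval -0.60 to -0.02, adjusted p = 0.069) did not pass. With median centring both did (adjusted p = 0.0376 and 0.0109), and COL1A2 also with a common total (0.0251) and without TGFB1 replicate 1 or 2 (0.0353 and 0.0355). With the replicate number as a block, COL1A1, COL1A2, COL3A1 and COL4A1 passed as lower (adjusted p = 0.0288, 0.00233, 0.0395 and 0.00701). COL5A1 (-0.18) passed without celastrol replicate 2 (adjusted p = 0.0435).

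The TGFB1 and celastrol libraries were also set against control. Of 38 chains, 11 were higher and 6 lower, where 34.0% of all rows tested were called higher and 21.6% lower, and the split became 11 and 13 with a common total and 10 and 18 with median centring. COL6A3 (-0.35, SE 0.07, adjusted p = 0.00386), COL8A1 (-0.49, SE 0.08, adjusted p = 0.00073) and COL13A1 (-0.68, SE 0.10, adjusted p = 0.00056) were lower under all 16 alternatives. COL1A2 (-0.48, adjusted p = 0.0119), COL1A1 (-0.41, adjusted p = 0.0478) and COL3A1 (-0.27, adjusted p = 0.0475) were lower as well. These 3 calls were lost without TGFB1 and celastrol replicate 1 (adjusted p = 0.115, 0.272 and 0.309) or without control replicate 2 (0.0583, 0.133 and 0.202). Those of COL1A1 and COL3A1 were also lost without control replicate 1 (0.122 and 0.0733). COL5A1 was at -0.28 (adjusted p = 0.0552), and passed as lower in 9 of the alternatives (adjusted p from 0.00619 to 0.0431). COL7A1 was at 0.16 (95% interval -0.06 to 0.39), and passed as higher without TGFB1 and celastrol replicate 2 (adjusted p = 0.0375).

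**Figure D3:**
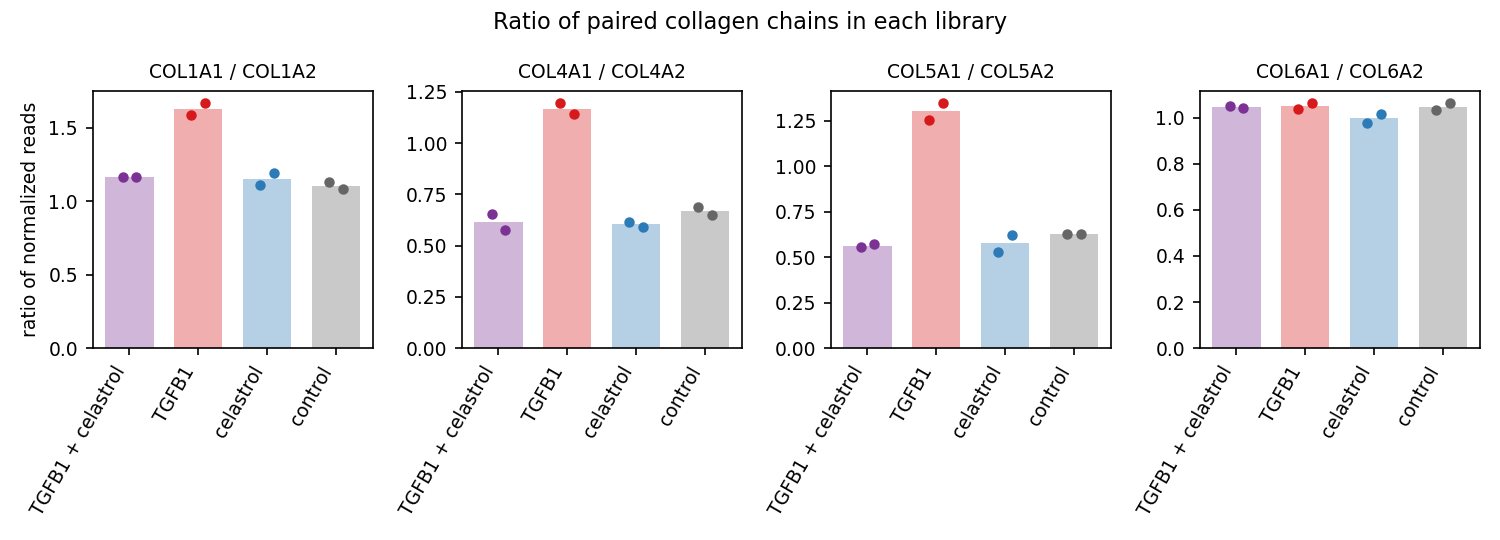
Ratio of the normalized reads of chains that join in 1 type of collagen, per library (points) with the mean of 2 libraries (bars starting at 0). Both TGFB1 libraries have the highest ratio for COL1A1 over COL1A2, COL4A1 over COL4A2 and COL5A1 over COL5A2, and the ratio lies between 0.978 and 1.06 in every library for COL6A1 over COL6A2.

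Because chains of 1 type assemble together, their ratio was followed within each library. COL1A1 over COL1A2 was 1.162 and 1.164 with TGFB1 and celastrol, 1.587 and 1.669 with TGFB1, 1.113 and 1.192 with celastrol alone, and 1.129 and 1.083 in control libraries. COL4A1 over COL4A2 was 0.656 and 0.576 with TGFB1 and celastrol, 1.196 and 1.139 with TGFB1, 0.616 and 0.590 with celastrol alone, and 0.690 and 0.648 in control libraries. COL5A1 over COL5A2 was 0.555 and 0.573 with TGFB1 and celastrol, 1.256 and 1.350 with TGFB1, 0.531 and 0.623 with celastrol alone, and 0.631 and 0.630 in control libraries. COL6A3 over COL6A1 had mean ratios of 4.38 with TGFB1 and celastrol, 6.24 with TGFB1, 4.45 with celastrol and 5.07 in control libraries. For these 4 ratios both TGFB1 libraries lay above the other 6. COL8A1 over COL8A2 went the other way, at 2.574 and 3.488 with TGFB1 and celastrol, 2.381 and 2.632 with TGFB1, 2.412 and 2.898 with celastrol alone, and 3.018 and 3.682 in control libraries. Both TGFB1 libraries lay below both control libraries for that ratio. With 2 libraries against 2, the exact permutation test cannot go below p = 0.333 (two-sided), which these 5 ratios reached for TGFB1 against control. COL6A1 over COL6A2 averaged 1.05 in both groups (exact permutation p = 0.667).

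**Figure D4:**
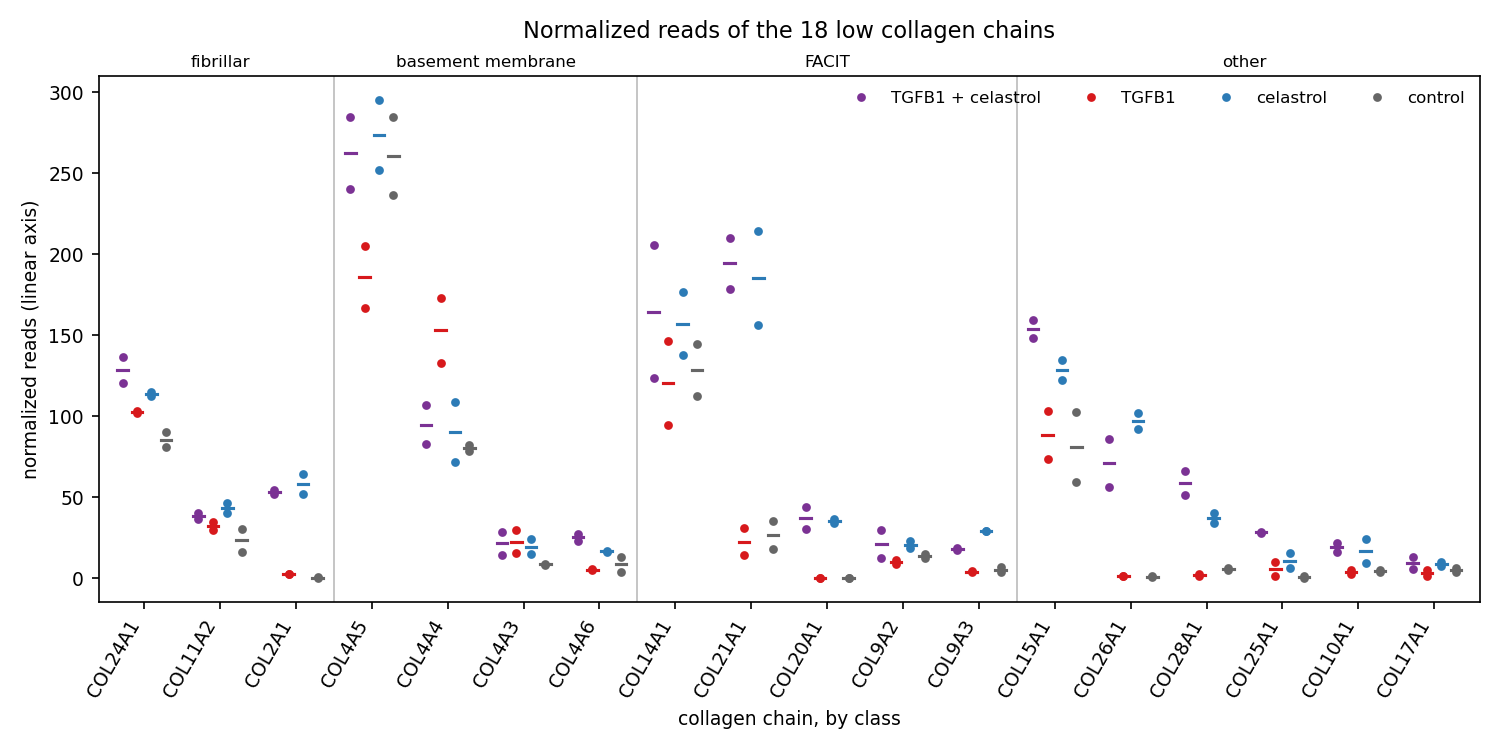
Normalized reads (linear axis) of the 18 collagen chains with a mean under 500 over the 8 libraries, ordered by class and level. Points are libraries and short bars are means of 2 libraries. COL2A1, COL20A1, COL21A1, COL26A1 and COL28A1 are near the bottom without celastrol and higher in the 4 libraries with it.

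The 18 chains below the division were counted separately. With celastrol added to TGFB1, 11 were higher and 1 lower, and with celastrol without TGFB1 9 were higher and 0 lower. Of all rows tested at that level, 45.6% were higher and 14.9% lower in the first comparison, and 39.4% and 15.1% in the second. Of the 18, 9 passed the filter only through celastrol libraries, so those 9 had to be high there: COL2A1, COL4A6, COL9A3, COL10A1, COL17A1, COL20A1, COL25A1, COL26A1 and COL28A1. Their levels are a description, and the counts of low chains give no support to a direction.

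COL20A1, a FACIT chain, had 30.1 and 44.0 normalized reads with TGFB1 and celastrol, 36.3 and 33.9 with celastrol alone, and was at 0 in the 2 TGFB1 and the 2 control libraries. Set against 3 reads in each library as the floor, this was at least 9.36-fold higher with TGFB1 and at least 12.7-fold higher without it. COL2A1, the fibrillar collagen of cartilage, held 78 and 47 estimated reads with TGFB1 and celastrol, 2 and 2 with TGFB1, 67 and 53 with celastrol alone, and 0 and 1 in control libraries. Its call as higher with TGFB1 (adjusted p = 0.0195) rests on these 2 reads in each TGFB1 library and was lost with a pseudocount of 5 (0.152), with only the 4 compared libraries (0.0873) and without TGFB1 replicate 1 (0.0604) or control replicate 1 (0.0985).

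COL26A1 held 123 and 51 estimated reads with TGFB1 and celastrol, 1 and 1 with TGFB1, 132 and 76 with celastrol alone, and 1 and 1 in control libraries. COL28A1 held 73 and 60 estimated reads with TGFB1 and celastrol, 2 and 1 with TGFB1, 52 and 28 with celastrol alone, and 4 and 10 in control libraries. For both chains every library with celastrol exceeded every library without it. COL21A1, a FACIT chain that was measured without celastrol too, had 178.8 and 210.2 normalized reads with TGFB1 and celastrol, 14.1 and 30.7 with TGFB1, 156.1 and 214.4 with celastrol alone, and 35.0 and 17.99 in control libraries. Celastrol raised it by 3.15 with TGFB1 (SE 0.41, adjusted p = 0.000197) and by 2.81 without (SE 0.41, adjusted p = 0.000499).

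COL15A1, a chain of basement membrane zones in muscle and vessels, had 159.1 and 148.6 normalized reads with TGFB1 and celastrol, 103.1 and 73.7 with TGFB1, 122.1 and 134.4 with celastrol alone, and 102.6 and 59.4 in control libraries. Its change of 0.81 with celastrol added to TGFB1 (adjusted p = 0.0284) was lost on leaving out any of 5 libraries (0.0542 to 0.145) and with median centring (0.112). COL9A3 shares exons with TCFL5 on the opposite strand, so its 3 to 38 estimated reads are uncertain. COL4A6 had 23.1 and 27.5 normalized reads with TGFB1 and celastrol, 5.65 and 4.92 with TGFB1, 16.2 and 16.96 with celastrol alone, and 3.75 and 13.2 in control libraries. COL10A1, a cartilage collagen, reached at most 24.2, COL25A1 at most 28.6, COL17A1 at most 13.3 and COL9A2 at most 29.7 normalized reads in any library. COL17A1 and COL9A2 were called in no comparison with all libraries. With celastrol added to TGFB1, COL17A1 passed as higher with a common total (adjusted p = 0.0499) and without TGFB1 and celastrol replicate 2 (0.0447) or TGFB1 replicate 2 (0.0256), and COL9A2 without TGFB1 and celastrol replicate 1 (0.0209). COL24A1 was called in the comparison of TGFB1 and celastrol with control (0.58, adjusted p = 0.0148), and COL11A2 in that of celastrol with control (0.92, adjusted p = 0.046). The COL24A1 call was lost without TGFB1 and celastrol replicate 2 or control replicate 2 (adjusted p = 0.0884 and 0.0758), and the COL11A2 call without any of 5 libraries (0.0765 to 0.264).

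Summed levels of endothelial, immune and melanocyte markers were higher in the libraries with celastrol than in those without it, as were those of several low chains. Of 6 endothelial markers 4 were in the table, with summed levels of 360.5 to 464.8 normalized reads with TGFB1 and celastrol, 52.7 to 98.9 with TGFB1, 354.4 to 370.5 with celastrol and 52.8 to 92.6 in control libraries; PECAM1 was at 0 in both TGFB1 libraries. Of 6 immune markers 4 were in the table, at 384.6 to 525.1 with TGFB1 and celastrol, 310.6 to 319.9 with TGFB1, 402.2 to 488.1 with celastrol and 245.1 to 368.6 in control libraries, where LYZ was at 0. CD68 made up most of the immune sum and was called in no comparison. CD14, a small part of it, was called higher with celastrol both with TGFB1 (2.85) and without it (2.51). Of 5 melanocyte markers 3 were in the table, at 1270.0 to 1312 with TGFB1 and celastrol, 222.5 to 235.9 with TGFB1, 1313 to 1365 with celastrol and 1034 to 1074 in control libraries, with MLANA at 0 in both control libraries. MITF made up most of the melanocyte sum, which was low in the TGFB1 libraries and not in control libraries. MLANA, a small part of it, was called higher with celastrol both with TGFB1 (6.03) and without it (6.70). PMEL was called in neither of these comparisons. Of 6 keratinocyte markers 2 were in the table, and their sums, mostly of KRT10, overlapped among the 4 groups. They were 945.7 to 982.8 with TGFB1 and celastrol and 939.0 to 1059 with TGFB1. With celastrol alone they were 880.4 to 1063, and in control libraries 879.2 to 956.7. TP63 was at 0 in both TGFB1 and both control libraries and had 7.27 to 9.11 normalized reads in the libraries with celastrol. The part of these markers in the collagen values was not tested.

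Genes that modify and fold procollagen were followed in a list of 20. With TGFB1 10 were higher and 0 lower, where 12.8% and 10.6% of all rows were called. With celastrol added 13 were lower and 1 higher, where 25.9% and 37.5% of all rows were called. The lists that follow are read against the same shares. P4HA2 and P4HA3, prolyl hydroxylase subunits whose reaction makes the helix stable, rose by 0.82 and 1.75 with TGFB1 (adjusted p = 5.34e-05 and 0.000532) and fell by 0.82 and 1.36 with celastrol added (adjusted p = 1.15e-05 and 0.00047). P3H2, a prolyl 3-hydroxylase, rose by 1.09 (adjusted p = 6.73e-05) and fell by 0.84 (adjusted p = 5.84e-05). SERPINH1, the collagen chaperone HSP47, was at 0.31 with TGFB1 (adjusted p = 0.0538) and at 0.20 with celastrol added (adjusted p = 0.0984), and was raised by celastrol without TGFB1 (0.67, adjusted p = 0.000496).

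Of 17 genes for procollagen export and processing, 6 were higher and 0 lower with TGFB1 (all rows 12.8% and 10.6%), and 4 were higher and 9 lower with celastrol added (all rows 37.5% and 25.9%). ADAMTS2 and BMP1, which remove the amino-terminal and carboxy-terminal propeptides, rose by 0.91 and 0.71 (adjusted p = 0.000119 and 0.000812) and fell by 1.71 and 1.05 with celastrol added (adjusted p = 1.12e-06 and 2.08e-05). The 4 higher with celastrol added were ADAMTS3 (1.055), TLL1 (1.99), TLL2 (2.24) and KLHL12 (0.23), with adjusted p = 0.000327, 0.000125, 0.000208 and 0.0387. Of 8 collagen receptors tested, 5 were higher and 1 lower with TGFB1 (all rows 12.8% and 10.6%), and 1 was higher and 5 lower with celastrol added (all rows 37.5% and 25.9%). ITGA2, the collagen-binding integrin subunit, rose by 1.71 (adjusted p = 9.46e-06) and fell by 2.48 (adjusted p = 4.24e-07), while the collagen receptor DDR2 went the other way, at -0.25 with TGFB1 (adjusted p = 0.015) and 0.64 with celastrol added (adjusted p = 2.54e-05).

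Fibril regulators had 3 of 9 tested members higher and 0 lower with TGFB1, and 2 higher and 3 lower with celastrol added. The first count stands against 12.8% and 10.6% of all rows, and the second is near or below the 37.5% and 25.9% of all rows. Biglycan (BGN), a proteoglycan of fibrils, rose by 0.93 (adjusted p = 0.000115) and fell by 0.85 (adjusted p = 3.99e-05), whereas DCN and LUM did not pass. Among 20 transcription and RNA-level regulators of collagen, 9 were higher and 3 lower with TGFB1, and 7 were higher and 7 lower with celastrol added. All rows had 12.8% and 10.6% in the first comparison and 37.5% and 25.9% in the second, near which the second count lies. CREB3L2 rose by 1.14 (adjusted p = 1e-05) and fell by 1.12 (adjusted p = 2.56e-06), and LARP6, which binds type I collagen mRNA, rose by 0.75 (adjusted p = 0.00147) and fell by 0.53 (adjusted p = 0.00236). SMAD3, a transducer of the TGFB1 signal, moved in the opposite direction, at -0.84 with TGFB1 (adjusted p = 0.00035) and 0.61 with celastrol added (adjusted p = 0.000453). So did TWIST1, at -1.56 and 1.79. EGR1 (1.67 and 2.68), SMAD7 (1.71 and 0.81) and CEBPB (0.68 and 1.27) were called higher in both comparisons.

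The gene structure of the chains, which played no part in their choice, follows the classes in part. In GENCODE release 29 the longest coding transcripts of the 11 fibrillar chains had 51 to 67 coding exons, of which 21 to 33 were exactly 54 bases long, the length that encodes 6 repeats of the glycine triplet. The 6 type IV chains had 46 to 53 coding exons with 1 to 3 of that length. The FACIT chains differed among themselves, from COL12A1 with 4 of 65 to COL9A2 and COL9A3 with 14 of 32 each. Within the fibrillar class, COL1A1 and COL3A1 had 21 and 24 such exons of 51, although TGFB1 raised COL1A1 and left COL3A1 uncalled. COL8A1, COL8A2 and COL10A1 each had 2 coding exons and none of 54 bases.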

How the data were processed

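Gene expression was measured by total RNA sequencing of 8 libraries, 2 per group. The deposited values are a signal per gene, estimated reads divided by a size factor per library, as read from their step sizes. The submitters' processing notes name STAR 2.7.3a, Partek 10.0.22, DESeq2 and hg38, without roles. The sources used here give no annotation, counting rule or use of strand. Only 73.9% to 76.0% of values under 1000 were whole reads within 0.02, so no count model was used. The value of 3 reads ranged from 1.80 to 4.24 normalized reads. Such limits cover counting error only.

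Rows were kept where 2 or more libraries reached 10 normalized reads. Values were fitted as log2(value + 1) in limma 3.58.1 (R 4.3.3) with a variance trend, over all 8 libraries (4 residual degrees of freedom), with Benjamini-Hochberg adjustment within each of 6 comparisons. In simulated data 98% of changes of 1 and 100% of changes of 2 (log2) were recovered for TGFB1 against control over 21553 rows, with 11 false calls. The simulation gave every row the same dispersion and changed 200 rows above a minimum mean. It therefore checks the fit and gives no power for low chains or for chains of larger spread. The 12 main chains were named whatever their result. The other chains and the genes of the lists were not named by smallest p alone. For example, FN1 had a smaller adjusted p than BGN with celastrol added (limma, 9.51e-06), and SERPINH1 was named without a call there. LARP6, SMAD3, DCN, LUM, EGR1, SMAD7, CEBPB, TWIST1, ADAMTS3, TLL1, TLL2 and KLHL12 were named after their values were seen. The members and lists were chosen with earlier results of these data known. Alternatives covered the pseudocount, filter, scaling, variance trend, replicate block, libraries fitted and each library left out. The second celastrol library carries the number 3 in another label.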

Additional observations from a re-analysis of the deposited data

Results flagged for a closer look

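For 13 collagen chains the celastrol difference with TGFB1 was more negative than the celastrol difference without it, by the interaction term of the limma fit (adjusted p under 0.05). The interaction, in log2 units, was -1.99 for COL4A1, -1.68 for COL7A1, -1.37 for COL8A2, -1.34 for COL5A1, -1.21 for COL4A2 and -1.08 for COL5A3. It was -0.86 for COL1A1, -0.85 for COL16A1, -0.78 for COL8A1, -0.77 for COL6A3, -0.74 for COL27A1, -0.52 for COL6A2 and -0.45 for COL6A1. With a common total COL1A1, COL6A1 and COL6A2 did not pass (limma, adjusted p = 0.0824, 0.224 and 0.0968). Without a variance trend these chains did not pass either (0.128, 0.157 and 0.101), nor did COL5A3, COL8A2 and COL27A1 (0.0679, 0.0628 and 0.0767). COL4A1, COL4A2, COL5A1, COL6A3, COL7A1, COL8A1 and COL16A1 passed under all 15 alternatives run. COL6A1 did not pass without any of 7 libraries (adjusted p from 0.0603 to 0.167) and COL6A2 without any of 5 (0.0552 to 0.0929). COL5A3 did not pass without TGFB1 and celastrol replicate 1 or 2 (0.0657 and 0.0504), COL8A2 without TGFB1 and celastrol replicate 2 or celastrol replicate 1 (0.0539 and 0.0541), and COL27A1 without celastrol replicate 2 (0.0626).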

How the results depend on the processing

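Of 3556 values of single chains under the alternatives, 3310 kept their side of the threshold, 136 lost a call, 110 gained one and 0 reversed a call. An uncalled value that changed sign and stayed uncalled counts among the 3310. The causes of these changes were not tested. With a minimum of 50, chains called lower with TGFB1 were 2 (0 as reported), chains higher with celastrol added to TGFB1 were 7, with celastrol alone 5, with both against control 6, and 1 chain had a positive interaction; fewer rows were tested. With a common total, 3 chains were lower with TGFB1, 8 with celastrol alone and 13 with both against control, and 1 had a positive interaction. With median centring, 15 were lower with celastrol alone and 18 with both against control. With only the 4 compared libraries 6 were higher with TGFB1, and without a variance trend 7 had a negative interaction. Over all rows tested, same-numbered libraries deviated together with correlations of 0.0499 to 0.0815, and the numbers were not taken to pair them. Most rows were low, so counting noise could hide a pairing and these correlations cannot exclude it. In all 4 groups replicate 2 was above replicate 1 for COL1A1, COL1A2 and COL3A1, and below it for COL4A1, COL11A1 and COL12A1. With the replicate number as a block, 2 chains were lower with TGFB1, 7 with celastrol alone and 10 with both against control. In that fit COL14A1 passed as higher with celastrol added (adjusted p = 0.0407).

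Leaving out 1 library gave 13 to 15 chains higher and 0 to 2 lower with TGFB1 (2 without TGFB1 replicate 1, 1 without replicate 2), and 10 to 12 higher and 17 to 18 lower with celastrol added. It gave 7 to 10 higher and 2 to 7 lower with celastrol alone (7 without control replicate 2), 9 to 12 higher and 4 to 8 lower with both against control, and 0 to 1 positive (1 without TGFB1 replicate 1) and 8 to 13 negative interactions (8 without TGFB1 and celastrol replicate 2). TGFB1 in the presence of celastrol gave 0 calls throughout. Depth limits the chains of a few reads.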
